A study of Homo sapiens with 8 samples.

Results

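Genes for the enzymes that methylate lysine 9 of histone H3 (H3K9), and for the proteins that bind this mark, were followed in Kyse510 cells, an established human esophageal squamous cell carcinoma (ESCC) line, after LSD1 or G9a had been inhibited or silenced. The 10 genes were chosen by name, and all of them were found, among 31582 genes in the table of the inhibitor experiment and 28942 in the table of the shRNA experiment. They were EHMT2, EHMT1, WIZ, ZNF644, SETDB1, SUV39H1, SUV39H2, CBX1, CBX3 and CBX5.

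RNA was sequenced in 8 libraries, 1 for each condition. The inhibitor experiment lasted 2 days and had cells with DMSO (vehicle), with SP2509 at 7 µM, which inhibits LSD1, with UNC0642 at 7 µM, which inhibits G9a, and with SP2509 and UNC0642 together. The dose in the combined treatment was not stated apart from that of the single inhibitors. The shRNA experiment used a line with an shLSD1 hairpin and a line with an shG9a hairpin, each stable, made with 1 hairpin that doxycycline (Dox) switches on, and kept under puromycin selection for 14 days. Each line was then sequenced without Dox and after 2 days with Dox. Each treated library was compared with its own control, which was vehicle for all 3 inhibitor treatments and the same line without Dox for each hairpin. The labels call each line without Dox the control, whereas a figure legend of the study names cells with a nonsilencing hairpin; the labels were followed, and what the hairpin ratios compare rests on them. No library labelled as nonsilencing was analysed here, so the effects of Dox itself and of the hairpin cannot be told apart.

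H3K9 is methylated by several enzymes that divide the work. G9a, encoded by EHMT2, and its partner GLP, encoded by EHMT1, form a heteromeric complex that places the mono- and dimethyl mark in euchromatin, and the zinc finger proteins WIZ and ZNF644 bring this complex to chromatin. SUV39H1 and SUV39H2 place the trimethyl mark in constitutive heterochromatin, and SETDB1 places it at retroelements and at genes bound by KRAB zinc finger proteins. Heterochromatin protein 1 (HP1) binds the methylated lysine and exists in 3 forms, HP1β (CBX1), HP1γ (CBX3) and HP1α (CBX5). LSD1, encoded by KDM1A, removes methyl groups from H3K4 and, in some settings, from H3K9.

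In the coordinates of the tables (GRCh38), the genes of the G9a-GLP complex are EHMT2 at chr6:31879759-31897687 (minus strand), EHMT1 at chr9:137618963-137870016 (plus strand), WIZ at chr19:15419980-15449951 (minus strand) and ZNF644 at chr1:90915298-91022272 (minus strand). The other methyltransferase genes are SETDB1 at chr1:150926263-150964744 (plus strand), SUV39H1 at chrX:48695554-48709012 (plus strand) and SUV39H2 at chr10:14878820-14904315 (plus strand). The HP1 genes are CBX1 at chr17:48070052-48101521 (minus strand), CBX3 at chr7:26201162-26213356 (plus strand) and CBX5 at chr12:54230940-54280133 (minus strand). All 10 are protein-coding.

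The site targeted by the shG9a hairpin is shown here because it ties the G9a arm to a single place in the EHMT2 transcript. The sequence is that of the study's construct shG9a-2, from which the inducible construct was derived, written 5′ to 3′ as the sense strand, with capitals left out because all bases belong to the target.
shG9a target site: gctccaggaatttaacaagat
The 21 bases lie at chr6:31882978-31882998 (GRCh38) on the minus strand, in coding exon 24 of the canonical EHMT2 transcript, outside the UTRs. They were present in 8 annotated EHMT2 transcripts (GENCODE release 44) and matched the genome exactly at 1 place. Among 252835 annotated transcripts, EHMT2 was the 1 gene with an exact match. The best ungapped alignment of the site to transcripts of the other 9 genes left at least 7 mismatches, in EHMT1 and ZNF644, and up to 9 in SUV39H2. An exon of the antisense gene EHMT2-AS1 covers the same place on the opposite strand.

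EHMT2 and CBX5, which were both called down in more than 1 comparison below, start close to a gene that runs the other way, C2 (complement component 2) and HNRNPA1 (an RNA-binding protein of the spliceosome), respectively. Their upstream sequences are shown because a single stretch of DNA separates the starts of each pair. Each is the 250 bases before the RefSeq start of the gene (GRCh38.p14), on the minus strand and written 5′ to 3′ towards the gene, with capitals marking the bases of this window that lie between the starts of the gene and its neighbour as listed in the deposited tables.
EHMT2, chr6:31897699-31897948: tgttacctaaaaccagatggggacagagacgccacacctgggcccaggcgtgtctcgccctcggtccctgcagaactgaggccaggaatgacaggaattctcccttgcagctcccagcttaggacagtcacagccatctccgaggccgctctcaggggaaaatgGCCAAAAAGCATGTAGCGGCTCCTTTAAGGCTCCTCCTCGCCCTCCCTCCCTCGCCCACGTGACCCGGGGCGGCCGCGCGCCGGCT
CBX5, chr12:54280123-54280372: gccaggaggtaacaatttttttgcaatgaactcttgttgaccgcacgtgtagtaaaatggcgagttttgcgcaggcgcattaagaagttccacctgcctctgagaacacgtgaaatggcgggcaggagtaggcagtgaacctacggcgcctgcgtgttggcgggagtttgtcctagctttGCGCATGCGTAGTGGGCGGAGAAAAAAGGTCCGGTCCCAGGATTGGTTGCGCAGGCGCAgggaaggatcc
The starts of EHMT2 and C2 are separated by 97 bases, of which 86 fall in the window, and those of CBX5 and HNRNPA1 by 59 bases. The EHMT2 window held 16 CG dinucleotides and the CBX5 window 17. Among 35116 promoter windows of the same length, 41.0% held at least 16 and 39.0% at least 17, so neither window was unusual in this respect.

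The deposited values are FPKM, fragments scaled by the length of the gene and the size of the library, which is a level per length and allows genes to be compared within a library. The library totals recovered from these values ranged from 15662035 to 17889466 fragments, called reads below. A call required a ratio of FPKM + 1 of 1.3-fold or more, up or down, together with an unadjusted p under 0.05 in a two-sided exact binomial test that set the reads of the gene in both libraries against the library totals. Genes that reached an FPKM of 1 in neither library were not tested. With 1 library per condition there is no replicate check, so each p compares 2 libraries and not 2 conditions, and every interval given below is a 95% interval that covers counting error only. Log2 fold changes are on the log2(FPKM + 1) scale, which understates the change of low genes. In bulk RNA, fewer cells that express a gene and less RNA per cell cannot be told apart.

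The labelled cell type was checked against its markers. The summed FPKM of 7 squamous epithelial markers ranged from 256 to 1036, and that of 8 markers of leukocytes, endothelium, fibroblasts and columnar intestine from 3.32 to 7.46, most of it COL1A1, while 5 of the 8 stayed below 1 FPKM wherever they were listed. The squamous sum was uneven: in vehicle KRT5 (427 FPKM) and EPCAM (139) were highest, and KRT14 (1.93) and KRT6A (0.68) were low. Of the 7 squamous markers, 4 were called up and 1 down with SP2509 (list median 0.68), 3 up and 3 down with UNC0642 (-0.33) and 3 up and 4 down with both (-1.39). With the hairpins, 1 was called up and 1 down of 6 tested with shLSD1 (-0.20), and 4 up and 1 down of 7 with shG9a (0.40). The gene targeted by shLSD1, KDM1A, went from 26.0 to 6.29 FPKM with Dox (ratio 0.242, interval 0.221 to 0.265). The whole distribution shifted in some comparisons, and the median gene with at least 5 FPKM moved by -0.09 (log2) with SP2509, 0.11 with shLSD1 and Dox, and 0.14 with shG9a and Dox, against -0.0036 with UNC0642 and 0.04 with both inhibitors. A trimmed mean of ratios (TMM) gave -0.28, 0.15, 0.23, 0.0048 and 0.0076 in the same order. For the comparisons with a shift, values relative to the median gene are given as well.

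The 10 genes covered a wide range of levels in the cells (plot of levels by library). In vehicle, CBX3 was highest at 66.0 FPKM, followed by CBX1 at 42.3, and SUV39H1 was lowest at 2.84. CBX3 and CBX1 occupied the first 2 ranks in all 8 libraries, at or above the 85.8th percentile of protein-coding genes with at least 1 FPKM. EHMT1, SUV39H1 and SUV39H2 occupied the last 3 ranks in all 8 libraries. For EHMT1 this is a rank per length, over 22217 bases, and its vehicle reads (1167) were close to those of EHMT2 (1270).

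**Figure D1:**
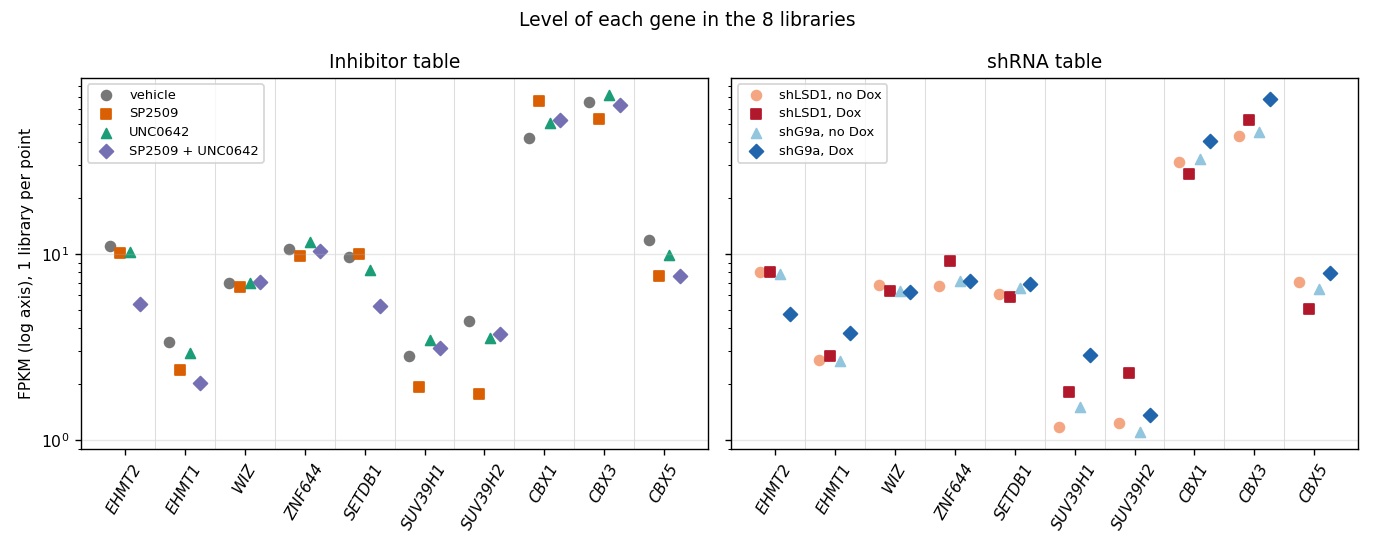
Level of the 10 genes as FPKM on a log axis, with 1 point for each library, the inhibitor experiment at left and the shRNA experiment at right. CBX1 and CBX3 lie between 26.9 and 71.9 FPKM in every library, and EHMT1, SUV39H1 and SUV39H2 lie between 1.10 and 4.39.

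The middle of the order could not be resolved in every library. In vehicle, CBX5 stood at 11.9 FPKM (counting interval 11.5 to 12.3), EHMT2 at 11.1 (10.5 to 11.8) and ZNF644 at 10.7 (10.1 to 11.3), so that each overlapped its neighbour in rank. SETDB1 followed at 9.69, its interval touching that of ZNF644, and WIZ at 6.99. EHMT2 held rank 3 or 4 among the 10 genes in vehicle and with either inhibitor alone, and ranked lower with both inhibitors, where its interval overlapped that of SETDB1, which stood at 5.25 FPKM. The order of these middle genes is not compared between the experiments, because no vehicle library was part of the second.

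EHMT2, the gene for G9a, was called down in 2 of the 5 comparisons. Its FPKM was 11.1 in vehicle, 10.2 with SP2509, 10.3 with UNC0642 and 5.38 with both inhibitors. In the shRNA experiment it was 8.0 and 7.97 in the shLSD1 line without and with Dox and, for shG9a, 7.85 without Dox and 4.76 with it. The 2 low libraries were therefore the one with both inhibitors and the one in which the hairpin against EHMT2 had been induced, while the other 3 libraries of the shRNA experiment lay close together.

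In the shG9a line, EHMT2 reads went from 946 to 601 with Dox, a ratio of 0.607 (interval 0.547 to 0.673), or -0.62 on the log2 scale (exact binomial p = 3.42e-22). Relative to the median gene the change was -0.76. The targeted transcript thus fell by 39.3% and did not disappear. The shLSD1 hairpin left EHMT2 at a ratio of 0.996 (interval 0.913 to 1.09, exact binomial p = 0.947).

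With both inhibitors, EHMT2 reads went from 1270 to 662, a ratio of 0.484 (interval 0.440 to 0.532, log2 -0.93, exact binomial p = 1.06e-54). Neither inhibitor alone moved EHMT2 past the fold threshold. SP2509 gave a ratio of 0.915 (interval 0.847 to 0.989), a direction that turned with TMM scaling (log2 0.16), and UNC0642 a ratio of 0.922 (interval 0.854 to 0.997). Set against the single treatments directly, EHMT2 with both inhibitors was 0.529 of its level with SP2509 (interval 0.481 to 0.581) and 0.524 of its level with UNC0642 (interval 0.477 to 0.576).

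EHMT1, the gene for GLP, moved with EHMT2 in one of these libraries and against it in the other. Its FPKM was 3.35 in vehicle, 2.39 with SP2509, 2.93 with UNC0642 and 2.04 with both inhibitors, and 2.68, 2.82, 2.67 and 3.79 in the shLSD1 line and the shG9a line, each uninduced and induced. Both inhibitors together gave a ratio of 0.608 (interval 0.554 to 0.667, log2 -0.52, exact binomial p = 3.44e-27). The shG9a hairpin gave a ratio of 1.42 (interval 1.31 to 1.54, log2 0.38, exact binomial p = 1.79e-17), the highest EHMT1 level of the shRNA experiment. This second call sat at the fold threshold and was lost relative to the median gene (0.24) and with TMM scaling (0.15). With SP2509 alone the log2 change of -0.36 was just short of the threshold, at a ratio of 0.712 (interval 0.653 to 0.777). It passed the threshold with a pseudocount of 0.1 (-0.47) or 0.01 (-0.49), but was further from it relative to the median gene (-0.27) and with TMM scaling (-0.08).

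The balance of G9a to GLP transcripts followed from these values and does not depend on library scaling. Per length, EHMT2 was 3.32 times EHMT1 in vehicle, 4.26 times with SP2509, 3.51 times with UNC0642 and 2.64 times with both. In the uninduced lines it was 2.98 and 2.94 times EHMT1, and it went to 2.83 times with shLSD1 and to 1.26 times with shG9a. The change of this ratio on shG9a induction was 0.428 (interval 0.376 to 0.488), against 0.949 (interval 0.841 to 1.07) on shLSD1 induction. The levels were scaled to gene lengths of 7289 bases for EHMT2 and 22217 for EHMT1. In vehicle the reads of both genes were close, at 1270 and 1167. The size of the ratio thus rests on the lengths used, whereas its change between libraries does not.

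**Figure D2:**
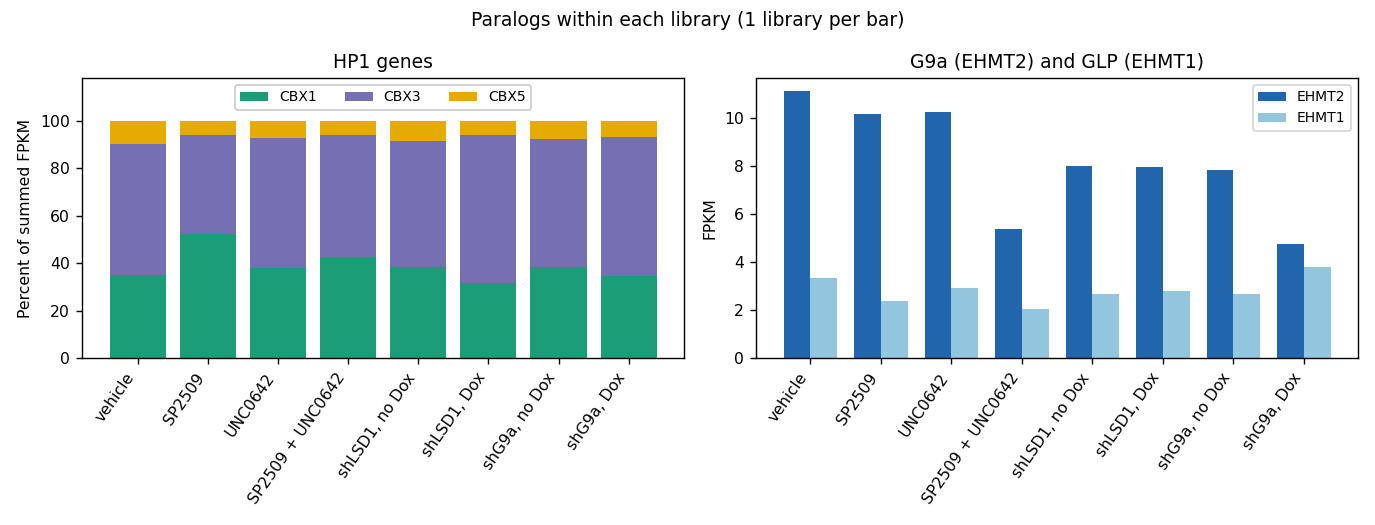
Left, share of CBX1, CBX3 and CBX5 in their summed FPKM in each of the 8 libraries (percent, stacked bars). Right, FPKM of EHMT2 and EHMT1 in the same libraries; the 2 bars come closest in the induced shG9a line, at 4.76 and 3.79 FPKM, and CBX1 takes its largest share, 52.2%, with SP2509.

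WIZ, which stabilizes the G9a-GLP complex and helps to recruit it, had the narrowest changes of the 10 genes. Its FPKM was 6.99, 6.64, 6.96 and 7.07 in vehicle, SP2509, UNC0642 and both, and 6.80, 6.33, 6.36 and 6.28 in the shLSD1 and shG9a lines, each without and then with Dox. It was called in 0 of the 5 comparisons, 0 also at an unadjusted p alone, and its log2 changes ran from -0.09 to 0.01 as deposited, from -0.20 to 0.03 relative to the median gene and from -0.25 to 0.21 with TMM scaling. With both inhibitors its counting interval of 0.922 to 1.11 did not reach the ratio of EHMT2 in the same libraries (0.484). The values of WIZ were scaled to different gene lengths in both tables, 7965 and 9826 bases, so its levels cannot be compared between them.

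ZNF644, another zinc finger partner of the complex, was called once. Its FPKM was 10.7, 9.82, 11.7 and 10.4 in the inhibitor experiment in the same order, 6.71 and 9.17 in the shLSD1 line, and 7.15 and 7.15 in the shG9a line. The rise with shLSD1 and Dox had a ratio of 1.37 (interval 1.25 to 1.49, log2 0.40, exact binomial p = 8.82e-13). It lay close to the threshold, and the call was lost relative to the median gene (0.29), with TMM scaling (0.25) and against the mean of both uninduced lines (0.36).

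SETDB1 was called down with both inhibitors and was called in no other comparison. Its FPKM was 9.69 in vehicle, 10.05 with SP2509, 8.16 with UNC0642 and 5.25 with both, and 6.10, 5.88, 6.61 and 6.88 in the shLSD1 line and then the shG9a line, each uninduced and induced. With both inhibitors its reads went from 1076 to 628, a ratio of 0.542 (interval 0.490 to 0.598, log2 -0.77, exact binomial p = 1.72e-35). The level with both inhibitors was 0.522 of that with SP2509 (interval 0.474 to 0.575) and 0.642 of that with UNC0642 (interval 0.581 to 0.710). UNC0642 alone gave a ratio of 0.843 (interval 0.773 to 0.919, exact binomial p = 9.39e-05), short of the fold threshold. In the shRNA experiment SETDB1 changed by -0.05 with shLSD1 and 0.05 with shG9a on the log2 scale, the latter turning to -0.09 relative to the median gene and -0.18 with TMM scaling. CERS2, a ceramide synthase gene on the opposite strand that overlaps SETDB1 over 4162 bases, rose with both inhibitors (17.1 to 26.3 FPKM, log2 0.59).

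The SUV39 genes were among the lowest of the group and rested on the fewest reads, 65 to 245 per library. SUV39H2 was at 4.39 FPKM in vehicle, 1.78 with SP2509, 3.54 with UNC0642 and 3.74 with both inhibitors. In the shLSD1 line it was at 1.23 FPKM without and 2.31 with Dox, and in the shG9a line at 1.10 and 1.36. SP2509 alone stood apart from the other 3 libraries of its experiment.

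SUV39H2 fell with SP2509 to a ratio of 0.406 (interval 0.322 to 0.509, log2 -0.95, exact binomial p = 1.85e-16). The log2 change was -0.86 relative to the median gene and -0.68 with TMM scaling. With both inhibitors the ratio to vehicle was 0.852 (interval 0.708 to 1.03, exact binomial p = 0.0876), and the level was 2.10 times that with SP2509 alone (interval 1.67 to 2.66). In the shLSD1 line SUV39H2 rose with Dox, with a ratio of 1.87 (interval 1.41 to 2.50, log2 0.57, exact binomial p = 5.96e-06, 0.46 relative to the median gene). DCLRE1C, a DNA repair nuclease gene that overlaps SUV39H2 over 6957 bases on the other strand, was also called down with SP2509 (1.74 to 1.08 FPKM, log2 -0.39), and the part of shared reads was not tested. The pharmacological and the genetic approach to LSD1 thus gave opposite directions for this gene, in tables with different controls.

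SUV39H1 was called down with SP2509 and up with shG9a. Its FPKM was 2.84, 1.93, 3.44 and 3.11 in vehicle, SP2509, UNC0642 and both, and 1.17 and 1.81 in the shLSD1 line. With the shG9a hairpin it was 1.51 before and 2.86 after induction. SP2509 lowered it to a ratio of 0.680 (interval 0.529 to 0.873, log2 -0.39, exact binomial p = 0.00207), a call that was lost relative to the median gene (-0.30) and with TMM scaling (-0.11). The shG9a hairpin raised it to a ratio of 1.90 (interval 1.45 to 2.50, log2 0.62, exact binomial p = 9.80e-07), or 0.48 relative to the median gene. With shLSD1 and Dox its ratio was 1.55 (interval 1.14 to 2.13, exact binomial p = 0.00422), at a log2 change of 0.37 just short of the threshold. It passed the threshold with a pseudocount of 0.1 (0.59) or 0.01 (0.63), but was further from it relative to the median gene (0.26).

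The 3 HP1 genes did not move together. CBX1 was at 42.3 FPKM in vehicle, 66.7 with SP2509, 50.4 with UNC0642 and 52.5 with both, and at 31.5, 26.9, 32.4 and 40.8 in the shLSD1 line and then the shG9a line, each uninduced and induced. Its rise with SP2509 had a ratio of 1.58 (interval 1.49 to 1.67, log2 0.64, exact binomial p = 2.53e-63), and it was the only one of the 10 genes called up by any inhibitor treatment. With both inhibitors CBX1 was 0.786 of its level with SP2509 alone (interval 0.748 to 0.826).

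CBX3 was at 66.0, 53.6, 71.9 and 63.0 FPKM in the inhibitor experiment, at 43.1 and 52.4 in the shLSD1 line, and at 45.5 and 68.4 in the shG9a line. The rise with shG9a and Dox had a ratio of 1.505 (interval 1.44 to 1.57, log2 0.58, exact binomial p = 2.64e-81), 0.44 relative to the median gene, and was no longer called with TMM scaling (0.35). None of the 3 inhibitor treatments carried it past the fold threshold, and its change with SP2509 was -0.30. Up to 5 CBX3 pseudogenes were listed beside it and together held at most 2.70% as many reads as the gene itself.

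CBX5 was the HP1 gene that was called most often, and each time as lower. Its FPKM was 11.9 in vehicle, 7.58 with SP2509, 9.89 with UNC0642 and 7.58 with both inhibitors. In the shLSD1 line it went from 7.09 to 5.06 with Dox, and in the shG9a line from 6.48 to 7.90. As deposited, SP2509 alone and both inhibitors gave the same level, 0.638 of vehicle in each case (interval 0.602 to 0.676, exact binomial p = 1.61e-54 and 5.59e-53). Their direct ratio was 1.0 (interval 0.939 to 1.07). This equality depended on scaling: relative to the median gene the log2 changes were -0.49 with SP2509 and -0.62 with both. With TMM scaling they were -0.31 and -0.59.

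With shLSD1 and Dox, CBX5 fell to a ratio of 0.714 (interval 0.665 to 0.766, log2 -0.42, exact binomial p = 2.56e-21), or -0.53 relative to the median gene. It was thus the only one of the 10 genes called in the same direction with SP2509 and with the hairpin against LSD1. Of all genes tested, 37.5% were called down with SP2509 and 10.4% with shLSD1. The share of all genes called in the same direction in both was not counted, so this overlap has no background beside it. Of these calls, the one with SP2509 was lost with TMM scaling (-0.31) and the one with shLSD1 against the mean of both uninduced lines (-0.36).

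The make-up of the HP1 transcripts shifted accordingly. CBX1 made up 35.2% of their summed FPKM in vehicle and 52.2% with SP2509, while CBX3 went from 54.9% to 41.9% and CBX5 from 9.89% to 5.93%. The size of these shares rests on the gene lengths used, 3087 bases for CBX1, 4641 for CBX3 and 15040 for CBX5. The vehicle reads of these genes were 2046, 4794 and 2800. The ratio of CBX3 to CBX1 went from 1.56 to 0.803 with SP2509, a change of 0.515 (interval 0.481 to 0.551), and it crossed 1 in no other library. With shLSD1 and Dox the same ratio moved the other way, from 1.37 to 1.95, a change of 1.42 (interval 1.31 to 1.55). As deposited, the summed level of the 3 genes was 120.2 FPKM in vehicle and 128 with SP2509, and it went from 84.4 to 117 FPKM with shG9a and Dox. Unlike the ratios, these totals depend on library scaling, with TMM shifts of -0.28 (log2) with SP2509 and 0.23 with shG9a. They were not rescaled, so the changes in total are not compared.

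Counted by comparison, SP2509 moved 4 of the 10 genes, 1 up and 3 down. Of the 13342 genes tested, 18.3% were called up and 37.5% down, so 4 of 10 did not exceed the background of 55.8%. The median of the 10 genes was -0.21 on the log2 scale, equal at this precision to that of all genes tested (-0.21). Relative to the median gene, 1 was called up and 2 down, and the split of all genes went from 2435 up and 5005 down to 2839 up and 4403 down.

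UNC0642 moved 0 of the 10 genes, where 15.8% of 13244 genes tested were called up and 14.0% down. Their log2 changes lay between -0.25 (SUV39H2) and 0.25 (CBX1), with a median of -0.06 against -0.01 for all genes. At an unadjusted exact binomial p under the same threshold but with no fold required, 8 of the 10 differed from vehicle, beside 61.6% of all genes tested, so small differences were resolved by the depth. The genes for the targeted enzyme and its partner changed by -0.11 (EHMT2) and -0.15 (EHMT1).

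Both inhibitors moved 4 of the 10 genes, all of them down, where 29.1% of 13907 genes were called down and 29.0% up. These were EHMT1, EHMT2, SETDB1 and CBX5. In both directions together, 58.1% of all genes were called. The median of the 10 genes was -0.13 against -0.02 for all genes.

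With shLSD1 and Dox, 2 of the 10 genes were called up and 1 down, beside 22.7% and 10.4% of 12970 genes and 33.1% in both directions together. Relative to the median gene 1 was called up and 1 down, and the split of all genes went from 2945 up and 1349 down to 2005 up and 1794 down. With shG9a and Dox, 3 were called up and 1 down, beside 30.0% and 15.8% of 13080 genes and 45.8% in both directions together. Relative to the median gene 2 were called up and 1 down, and the split of all genes went from 3922 up and 2065 down to 2682 up and 2593 down. In no comparison was the share of the 10 genes called, in both directions together, above the share of all genes.

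**Figure D3:**
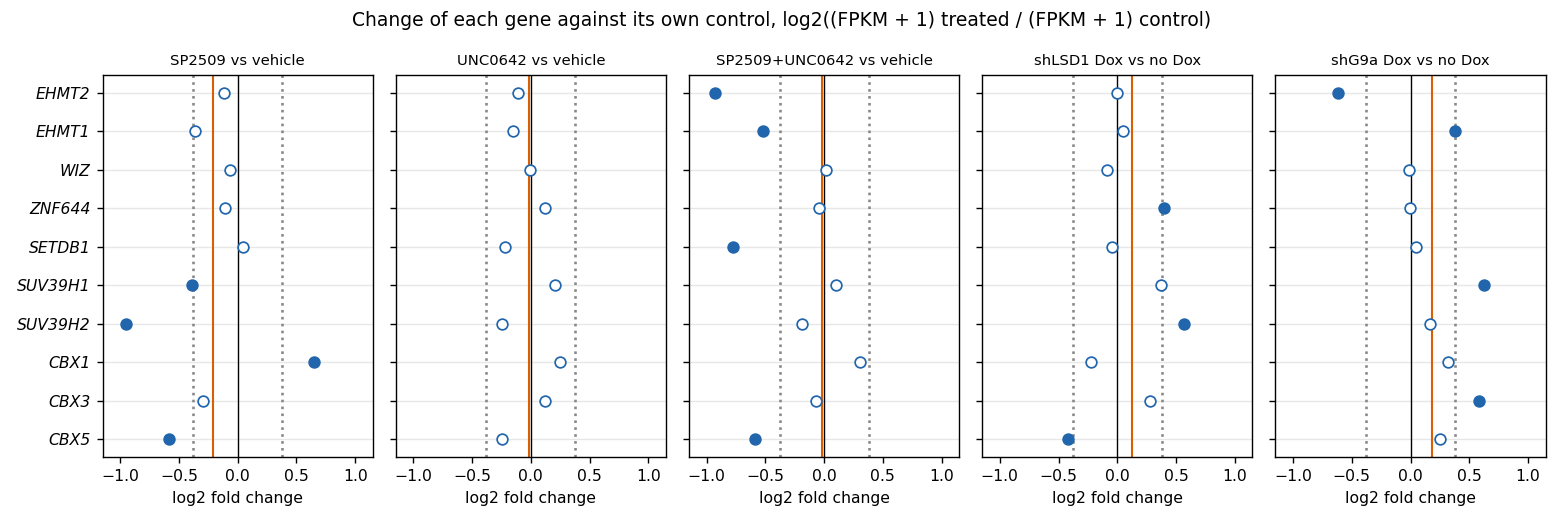
Log2 fold change of the 10 genes in the 5 comparisons, as log2 of the ratio of FPKM + 1, with filled points for called genes, dotted lines at the 1.3-fold threshold and an orange line at the median of all genes tested. EHMT2 lies at -0.93 with both inhibitors and at -0.62 in the induced shG9a line, and between -0.12 and 0 elsewhere; WIZ lies near 0 in all 5 panels.

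The combined treatment did not follow the single treatments in the same way for each gene. For EHMT2 the log2 changes with SP2509 and UNC0642 were -0.12 and -0.11, which sum to -0.22, and the change with both was -0.93, lower by 0.70. SETDB1 departed in the same direction, with -0.77 against a sum of -0.17. EHMT1 was at -0.52 against a sum of -0.51 as deposited, but at -0.55 against -0.41 relative to the median gene and at -0.53 against -0.24 with TMM scaling. Under these scalings the departure of EHMT2 was -0.84 and -0.98, and that of SETDB1 -0.73 and -0.88.

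Other genes departed upwards from the sum or stayed near one of the single values. SUV39H2 was at -0.19 with both against a sum of -1.20, a departure of 1.02, or 0.88 relative to the median gene and 0.74 with TMM scaling. CBX1 was at 0.30 against a sum of 0.89, close to its change with UNC0642 alone (0.25), and departed by -0.59, or -0.72 and -0.87 under the same scalings. CBX5 was at -0.59 both with SP2509 and with both inhibitors as deposited. It was at -0.49 and -0.62 relative to the median gene, and at -0.31 and -0.59 with TMM scaling. The 3 treatments share 1 vehicle library, and a departure from the sum has no replicate error here. The rescaled sums were added after the data had been examined.

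**Figure D4:**
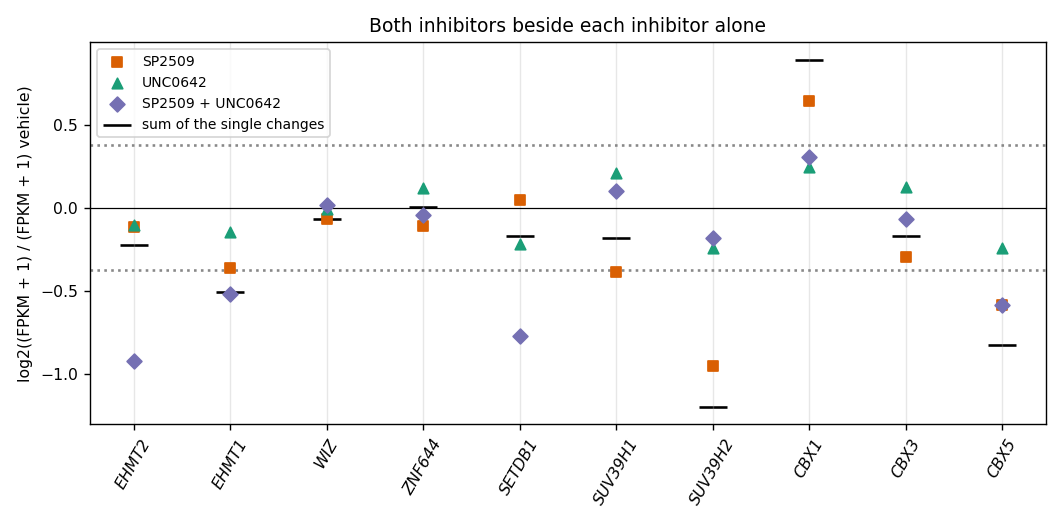
Log2 fold change of each gene against vehicle with SP2509 (squares), UNC0642 (triangles) and both inhibitors (diamonds), with a black bar at the sum of the single changes and dotted lines at the 1.3-fold threshold. The diamonds of EHMT2 (-0.93) and SETDB1 (-0.77) lie below the bar, and those of SUV39H2 (-0.19) and CBX1 (0.30) lie between the bar and 0.

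Over the 8 libraries, each table centred on its own mean, the genes whose log2(FPKM + 1) followed EHMT2 most closely among 5756 protein-coding genes with a mean of at least 5 FPKM in both tables were ANP32B (Pearson r = 0.986), a histone-binding acidic phosphoprotein, NT5DC1 (r = 0.973) and GPD2 (r = 0.973), the mitochondrial glycerol-3-phosphate dehydrogenase. ANP32B was at 210.5, 170.2, 173 and 105 FPKM in the inhibitor experiment, and at 151, 151, 151 and 94.1 in the shLSD1 line and then the shG9a line, each uninduced and induced. It shared with EHMT2 the low values with both inhibitors and with shG9a. Among the members that passed this level filter, SETDB1 was the most similar, at r = 0.642 and rank 638. EHMT1, SUV39H1 and SUV39H2 were below the filter and were not ranked. These correlations are a description of 8 libraries that share controls and depth, and no test was made.

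Genes next to the members were examined because the sources do not state whether reads were counted by strand, so that reads of overlapping genes on opposite strands cannot be told apart. EHMT2-AS1 overlaps EHMT2 over 444 bases and was listed at no more than 0.31 FPKM. C2, whose start lies 98 positions from that of EHMT2, was at 0.74, 0.30, 0.49 and 0.41 FPKM in the inhibitor experiment, too low to be tested. In the shLSD1 line, C2 went from 1.02 to 2.02 FPKM with Dox and was called up (log2 0.58), where EHMT2 had a ratio of 0.996. For shG9a, C2 stood at 0.74 FPKM without and 1.01 with Dox and was not called.

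HNRNPA2B1, an abundant RNA-binding protein gene, starts 367 positions from CBX3 and overlaps it over 368 bases. Within each experiment the libraries had the same order of levels for both genes. HNRNPA2B1 was at 57.6 and 83.9 FPKM in the shLSD1 line and at 62.2 and 121 in the shG9a line, and it was called up in both (log2 0.53 and 0.95). In the inhibitor experiment it was called down with SP2509 (-0.71) and with both inhibitors (-0.60), where CBX3 was not called. The part of shared reads in the CBX3 values was not tested.

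CBX5 and HNRNPA1 were called together in 1 comparison. HNRNPA1 was at 349, 372, 302 and 243 FPKM with vehicle, SP2509, UNC0642 and both, at 338 and 316 in the shLSD1 line, and at 337 and 450 in the shG9a line. It was called down with both inhibitors (-0.52), as CBX5 was, but changed by 0.09 with SP2509, where CBX5 fell by 0.59. AC078778.1, an antisense gene, overlaps CBX5 over 16449 bases. It was at 3.47 FPKM in vehicle, 0.76 with SP2509 and 4.03 with both inhibitors, on 40, 10 and 50 reads. In the shLSD1 line, where CBX5 was also called down with Dox, it went from 0.92 to 1.40 FPKM (12 and 18 reads). The part of shared reads in the CBX5 values was not tested. ARRDC1-AS1, which starts 57 positions from EHMT1 on the other strand, was called down with all 3 inhibitor treatments (-1.59, -0.54 and -0.62) and up with shG9a (0.63).

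**Figure D5:**
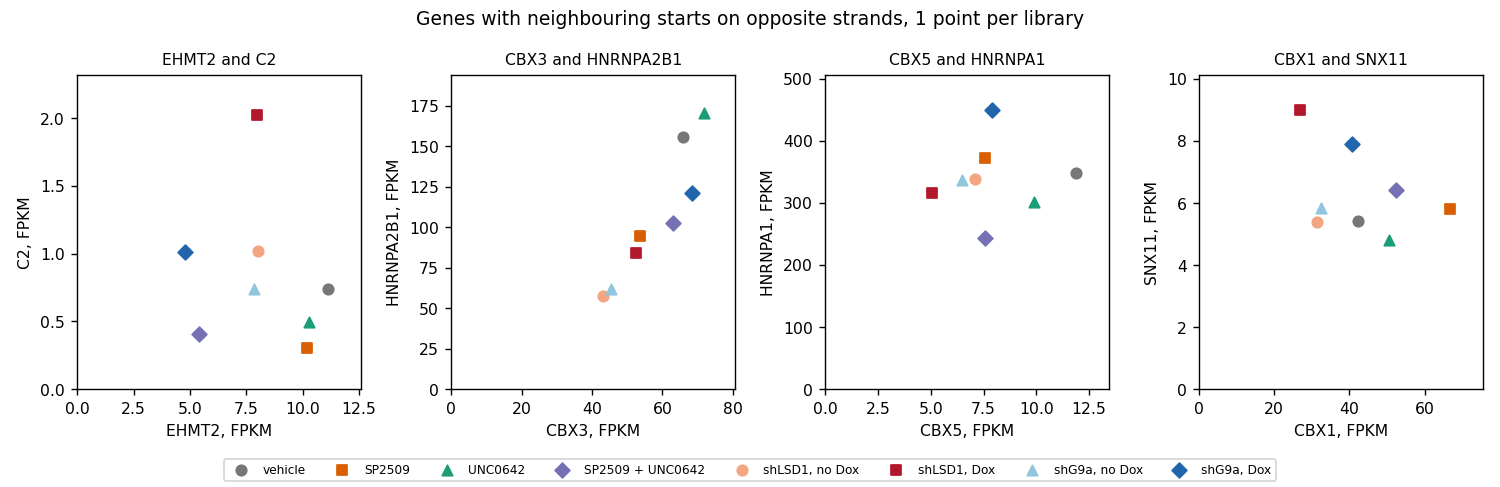
FPKM of EHMT2, CBX3, CBX5 and CBX1 (x axes) against that of a gene with a nearby start on the opposite strand (y axes), with 1 point for each of the 8 libraries and all axes from 0. HNRNPA2B1 spans 57.6 to 171 FPKM where CBX3 spans 43.1 to 71.9, and C2 stays at or below 2.02 FPKM.

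Genes that work with these enzymes were counted from lists chosen for the pathway, and each count is read against the share of all genes called in that comparison. Of 11 genes associated with the G9a-GLP complex, 10 were tested in each comparison. SP2509 called 7 down and 1 up, where 37.5% and 18.3% of all genes were, led by CTBP2, a corepressor (-0.78), and ZNF462, a zinc finger protein that binds G9a-GLP (0.88), with a list median of -0.52 against -0.21 for all genes. UNC0642 called 1 up, UHRF1, a reader of methylated H3K9 and of hemimethylated DNA (0.86), and 1 down, CTBP2 (-0.40), where 29.8% of all genes were called in either direction. Both inhibitors called 2 up and 3 down, fewer than the share of all genes (58.1%), with E2F6 (0.96) and ZNF462 (-0.79) at the ends. The shLSD1 hairpin called 4 up and 1 down (22.7% and 10.4% of all genes), and the shG9a hairpin 3 up and 1 down (30.0% and 15.8% of all genes), with UHRF1 (1.24) and CTBP2 (-0.75) at the ends in the latter.

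Of 8 genes for SETDB1 cofactors, its relative SETDB2 and the HUSH silencing complex, 7 were tested. SP2509 called 5 of them down and 0 up, beside 37.5% and 18.3% of all genes and at a list median of -0.47 against -0.21, with TRIM28, the corepressor that brings SETDB1 to KRAB zinc finger proteins, going from 60.4 to 29.8 FPKM (-0.99). With both inhibitors 3 were called down and 1 up, near the 58.1% of all genes called in either direction, with SETDB2 lowest (-0.82) and MORC2 rising (0.47), and TRIM28 stood at 67.0 FPKM. UNC0642 called 1 down, SETDB2 (-0.61), beside 14.0% of all genes. With shLSD1 1 of 7 was called up, beside 22.7% of all genes, namely ATF7IP (0.57), the partner that stabilizes SETDB1. With shG9a 4 of 7 were called up, beside 30.0% of all genes, led again by ATF7IP (0.70). Where SETDB1 itself fell, with both inhibitors, ATF7IP went from 7.15 to 4.29 FPKM (log2 -0.62), a value looked up after those of SETDB1 were seen.

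Of 11 HP1 partners, 10 were matched by symbol, and all 10 were tested. SP2509 called 5 down and 2 up, beside 37.5% and 18.3% of all genes, with CHAMP1, which binds HP1 at chromosomes, at -1.61 and INCENP, of the chromosomal passenger complex, at 0.62, and a list median of -0.54 against -0.21 for all genes. UNC0642 called 3 up and 3 down (15.8% and 14.0% of all genes), and both inhibitors 2 up and 3 down (29.0% and 29.1% of all genes). ADNP, the HP1 partner of the ChAHP complex, was lowest in each (-0.67 and -1.22). Highest were LBR, the HP1-binding receptor of the inner nuclear membrane, with UNC0642 (0.51) and CHAF1A with both (0.72). The list median was 0.19 in each, against -0.01 and -0.02 for all genes. Each hairpin called 5 up and 0 down, where 22.7% of all genes were called up with shLSD1 and 30.0% with shG9a, led by LBR with shLSD1 (0.94) and by INCENP with shG9a (0.95). The list medians with the hairpins were 0.38 and 0.40, against 0.13 and 0.18 for all genes.

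Among the demethylases of H3K9, KDM3A, followed here after its values were seen, had the widest changes. It rose from 6.94 to 39.5 FPKM with SP2509 (2.35) and to 29.7 with both inhibitors (1.95), and fell from 20.6 to 5.97 with shLSD1 (-1.63) and from 19.7 to 8.22 with shG9a (-1.16). Counted over the list, 2 were called up and 3 down of 9 tested with SP2509, close to the 55.8% of all genes called in either direction. With UNC0642 2 were called up and 3 down of 10, beside 29.8% of all genes, and with both inhibitors 3 up and 4 down of 10, beside 58.1%. With shLSD1 1 was called up and 3 down of 9, KDM1A among them, beside 33.1% of all genes, and with shG9a 3 were called up and 2 down of 9, beside 45.8%.

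A list of 10 proliferation genes was counted in the same way. With shLSD1 and with shG9a, 8 of 10 were called up and 0 down, where 22.7% and 30.0% of all genes were called up, with AURKB highest in each (1.50 and 1.88). The list medians were 0.63 and 0.72 against 0.13 and 0.18 for all genes, and the summed FPKM of the list went from 130 to 195 and from 137 to 266. The rises of SUV39H1 and CBX3 with shG9a, and of SUV39H2 with shLSD1, came in these same libraries, and the part of proliferation in them was not tested. With SP2509 the list was split, beside 55.8% of all genes called in either direction, with 3 down, led by PCNA (-1.47), and 2 up, led by CDK1 (1.02), at a summed FPKM of 405 against 406 in vehicle. UNC0642 called 2 up and 0 down, beside 15.8% and 14.0% of all genes, at a summed FPKM of 488. Both inhibitors called 3 up and 5 down, beside 29.0% and 29.1% of all genes, at 378, with PCNA (1.24) and TOP2A (-2.34) at the ends.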

How the data were processed

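RNA-seq (paired-end reads of 150 bases) was used as FPKM values that the authors deposited in 2 tables after mapping to the human genome (GRCh38, Ensembl release 87). The aligner, counter and strand setting are not given in the sources used here. Columns were matched to samples by name. Reads were estimated from the steps of the FPKM values: genes with 1 exon gave the library totals, and the gene length that makes all values whole gave the reads, which cover 99.6% to 99.8% of the totals. In simulated SP2509 and vehicle libraries, 100 of 100 genes with a 2-fold change gave a call in the right direction and 101 of 12775 genes with no change gave a call. The simulated libraries differed by counting error only, so these counts do not cover variation between replicate libraries. The reads of 99.5% of 57231 simulated gene entries were recovered, where a gene listed in both tables counts once in each.

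Every comparison was computed over the whole table with scipy 1.17.1, and the fold change, the filter and the exact test are those given with the results. The genes and lists were chosen with earlier results of these data known. Genes named from the pathway lists are mostly those with the largest rise or the largest fall among those called, and not every such gene is named. For EHMT2 the 3 genes of most similar pattern are named. The alternatives were pseudocounts, filters, a 2-fold threshold, centring, TMM, adjusted p, no p, shorter gene lengths and the mean of both uninduced lines as control.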

Additional observations from a re-analysis of the deposited data

How the results depend on the processing

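Of 505 log2 fold changes of the 10 genes recomputed under the alternatives, 464 kept their direction and their side of the threshold, 25 kept their direction but lost the call, 4 gained a call and 12 changed sign. None of the 12 was called in either setting. Centred on the median gene, they were WIZ with SP2509 (0.029) and with both inhibitors (-0.020), EHMT1 with shLSD1 (-0.059) and SETDB1 with shG9a (-0.093). With TMM scaling they were EHMT2 (0.16), WIZ (0.21) and ZNF644 (0.17) with SP2509, EHMT1 with shLSD1 (-0.10), and SETDB1 (-0.18) and SUV39H2 (-0.066) with shG9a. Against the mean of both uninduced lines they were EHMT2 with shLSD1 (0.0076) and ZNF644 with shG9a (0.039). A threshold of 2-fold left 0 genes called with SP2509, with both inhibitors, with shLSD1 and with shG9a, where 4, 4, 3 and 4 were called. With a minimum of 5 FPKM the number called was 2 with SP2509 and 2 with shG9a, since fewer genes are tested. With TMM scaling it was also 2 in each. Against the mean of both uninduced lines, 1 gene was called with shLSD1. UNC0642 called 0 under all of its alternatives. With adjusted p, with no p, with no filter and with the shortest gene length, all calls were the same. The shortest length did give CBX5 a much larger exact binomial p with SP2509 and with UNC0642. The p and the narrow intervals given for CBX5 thus depend on the length used. No paired analysis was possible because each condition had 1 library, which leaves no pairs of replicates. The depth resolves small ratios of most genes, and least well those of SUV39H1 and SUV39H2, which had 65 to 245 reads.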
